A study of Mus musculus with 18 samples.

Results

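The genes described here encode the proteins of the mitochondrial ribosome. They were taken from the count table as the protein-coding genes whose symbol begins with Mrpl or Mrps followed by a digit, which gave 77 of 25957 genes. Of these, 50 belong to the large subunit, among them Mrps30 and Mrps18a, whose symbols carry the letter of the small subunit, and 26 to the small subunit. The remaining gene, Mrps36, is now known to encode a component of the alpha-ketoglutarate dehydrogenase complex. Enough counts for a test were present for 75 of the 77 genes, which were tested among 10075 genes in all. Mrps18b had 0 to 3 counts and Mrps34 0 to 2 counts per library and were not tested.

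The mitochondrial ribosome is built from rRNAs encoded in mitochondrial DNA and proteins encoded in the nucleus, which are made in the cytosol and imported. It translates the membrane subunits of the respiratory chain and ATP synthase that mitochondrial DNA encodes. Part of its proteins have bacterial homologues, and the others were added during the evolution of mitochondria.

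The cells were C2C12, an established line of mouse myoblasts, and expression was measured by BRB-seq, a bulk method that reads mainly the 3′ ends of mRNAs and barcodes each sample before pooling. There were 18 libraries in 6 groups of 3. All cells were kept in medium with 20% FBS. Control cells were lysed and scraped directly in the plate. All other cells were first washed with PBS and then exposed to an enzyme. The trypsin solution (0.25%, 200 µL, 37 °C) stayed on the cells for 30 s in the first group, for 3 min in another and for 30 min in the longest. For low trypsin it was removed at once, and the cells then stood for 3 min at 37 °C. The last group was shaken with a cold-active protease for 5 min at 4 °C. Washing, incubation and harvest therefore differed from control together with the enzyme, and their parts in a difference cannot be told apart. Libraries of a group are numbered as lots without a statement of what a lot is, and p-values therefore measure the spread between these samples only. Library totals were 1490869 to 2480690 counts. The myoblast markers were present in every library, with Myod1 at 45.3 to 67.7 CPM (counts scaled to library size, with TMM factors) and Des at 800 to 971 CPM. Endothelial and epithelial markers were near 0, with 4 counts of Pecam1 and 3 of Epcam over all 18 libraries. Of the leukocyte and macrophage markers, Ptprc had 6 counts and Adgre1 2, while Cd68 had 93 and was at 0.467 to 5.46 CPM. Markers of differentiated muscle were also present, with Acta1 at 58.0 to 112 CPM, Myh3 at 4.72 to 15.3 and Ckm at 0.498 to 3.75.

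Together the 77 genes took a slightly smaller share of the counts of all genes after 30 s and 3 min of trypsin. Their share was 0.756% ± 0.020 (SD, n = 3) in control, 0.705% ± 0.011 after 30 s and 0.700% ± 0.0045 after 3 min. All 3 libraries of each of these treatments lay below all 3 control libraries (exact two-sided permutation p = 0.1, the smallest that 3 against 3 libraries can give, and 0.25 after Benjamini-Hochberg adjustment over the 5 treatments). The share was 0.745% ± 0.013 after 30 min, 0.745% ± 0.0097 in low trypsin and 0.762% ± 0.0078 with the cold-active protease, and the libraries of these groups overlapped control (exact permutation p = 0.6 for each, adjusted 0.6). In bulk RNA, fewer cells of a kind and less RNA per cell cannot be told apart.

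**Figure D1:**
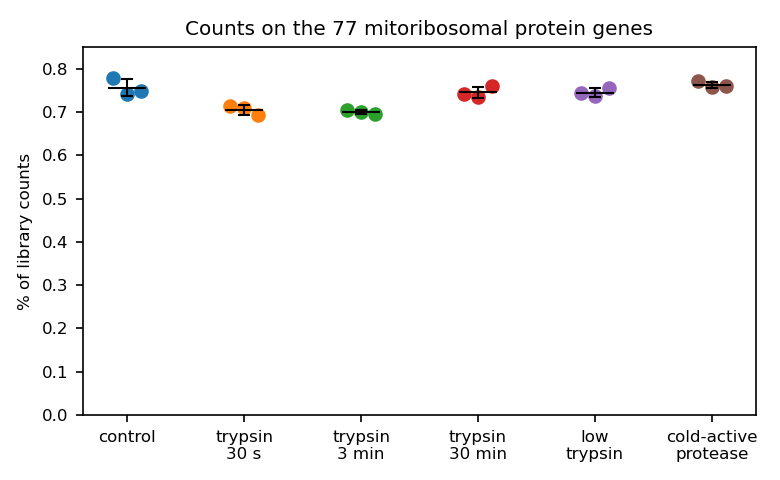
Percent of each library's counts that fell on the 77 mitoribosomal protein genes; points are libraries, bars are the group mean with its SD (n = 3). The libraries of 30 s and 3 min trypsin lie below all control libraries, and those of the other groups overlap control.

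Gene by gene, the change was a fall of a minority of the genes after brief trypsin and little change elsewhere. A gene is called changed here where its adjusted p from edgeR's quasi-likelihood test, with Benjamini-Hochberg adjustment over all 10075 genes, is under 0.05. After 30 s, 15 genes fell, where 3.7% of all tested genes did, and 4 rose, where 3.24% did. The 19 genes are 25.3% of the 75 tested, against 6.94% of all genes called in either direction. After 3 min, 10 fell (2.95% of all genes) and 0 rose (1.01%), or 13.3% of members against 3.96%. No member rose by DESeq2 either, and 3 were higher at an unadjusted p under 0.05, beside 596 of all 10075 genes. After 30 min, 2 fell (2.61% of all genes) and 1 rose (2.07%), or 4% against 4.68%. In low trypsin 1 fell (1.9% of all genes) and 3 rose (3.3%), or 5.33% against 5.19%. With the cold-active protease 1 fell (0.467% of all genes) and 0 rose (0.199%), or 1.33% against 0.665%. DESeq2 called no member there, and 4 members were higher and 4 lower at an unadjusted p under 0.05. Of all 10075 genes, 430 were higher and 455 lower at that p. The shares after 30 min and in low trypsin were near those of all genes. The median log2 change of the 75 genes was -0.15 after 30 s and -0.12 after 3 min, where the median of all tested genes was 0.0028 and 0.0091. It was -0.07 after 30 min, -0.05 in low trypsin and -0.01 with the cold-active protease. Across all comparisons with control, 19 genes fell in at least 1, 4 rose in at least 1, and 52 changed in none. The same count was not made over all tested genes, so no background stands beside it. An F test over the 6 groups called 21 of the 75 genes, where it called 11.5% of all tested genes.

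**Figure D2:**
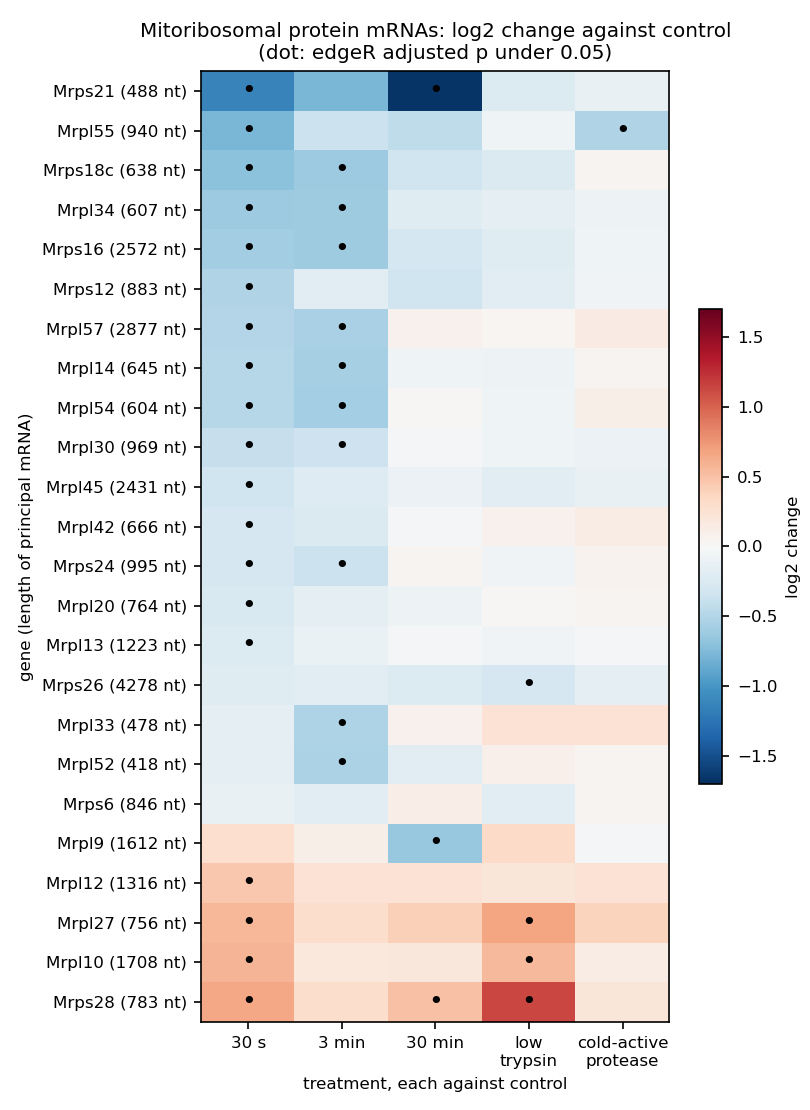
Log2 change against control (color) of the 24 members called in a comparison with control or in the F test over 6 groups, with the length of the principal mRNA of each gene; a dot marks an edgeR adjusted p under 0.05. Dots on falls stand mostly in the 30 s and 3 min columns, and Mrps28, Mrpl10, Mrpl27 and Mrpl12 make up the rises.

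Both subunits took part. Of 50 large-subunit genes, 10 fell and 3 rose after 30 s, and of 24 tested small-subunit genes 5 fell and 1 rose. After 3 min, 7 large-subunit and 3 small-subunit genes fell. The difference between the subunits was not tested.

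Mrpl14 had the smallest p of all members in the F test over 6 groups (adjusted p = 4.35e-11). It encodes the large-subunit protein at the subunit interface to which the assembly factor Malsu1 binds, and lies on chromosome 17 from 45686322 to 45698495 (GRCm38). Its levels were 239, 255 and 250.3 CPM in control, 186, 178 and 167 after 30 s, and 168, 177 and 159 after 3 min. The libraries of both brief trypsin groups were lower than every control library. They were 251, 237 and 224 after 30 min, 226, 239 and 237 in low trypsin, and 251, 254 and 263 with the cold-active protease, all above the brief trypsin libraries. The log2 change was -0.49 (SE 0.07, edgeR adjusted p = 5.19e-07) after 30 s and -0.56 (SE 0.07, edgeR adjusted p = 5.4e-08) after 3 min.

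Mrpl54, a mitochondria-specific large-subunit protein on chromosome 10 (81264713 to 81266934), was likewise lowest in the 2 brief trypsin groups. Its levels were 179.7, 184 and 189 CPM in control, 127, 146 and 122 after 30 s, and 119, 118 and 134 after 3 min. After 30 min they were 182, 180.3 and 199 CPM, in low trypsin 175, 169 and 180.3, and with the cold-active protease 202, 192 and 199.7. Both brief trypsin groups lay wholly below control, the cold-active protease libraries lay above it, and those of 30 min and low trypsin overlapped it. The log2 change was -0.49 (SE 0.08) after 30 s and -0.58 (SE 0.08) after 3 min.

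Mrpl57, another large-subunit protein specific to mitochondria, fell about as much although its annotated principal mRNA is long, at 2877 nt. Its coding part is 306 nt. Levels were 120.0, 119 and 116 CPM in control, 83.8, 80.9 and 86.2 after 30 s, and 80.7, 78.7 and 82.4 after 3 min. Every library of these treatments was lower than control. Libraries of the other 3 groups lay between 113 and 141 CPM, overlapping control. The log2 changes were -0.50 (SE 0.10, edgeR adjusted p = 0.000152) and -0.55 (SE 0.10, edgeR adjusted p = 7.62e-05).

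Mrpl33 and Mrpl52 fell at 3 min but were not called at 30 s. Their principal mRNAs are 478 and 418 nt. The 40 tested coding genes of 300 to 500 nt, which include both, had a median log2 change of -0.14 at 30 s and -0.52 at 3 min. Mrpl33, counterpart of bacterial L33, was at 162, 157 and 158 CPM in control, 141, 144 and 139 after 30 s and 104, 120.2 and 107 after 3 min. Its libraries at 3 min lay below those at 30 s, which lay below control. The log2 change against control was -0.17 (SE 0.09, edgeR adjusted p = 0.361) at 30 s and -0.52 (SE 0.10, edgeR adjusted p = 9.9e-05) at 3 min. Mrpl52, a mitochondria-specific protein, was at 168, 173 and 192 CPM in control, 166, 162 and 152 after 30 s and 121, 138 and 108 after 3 min. The direct comparison of 3 min with 30 s called these 2 members lower and 0 higher, where 1.46% of all genes were lower, 0.476% higher and 1.94% called in all. Mrpl52 differed by -0.38 (SE 0.09, edgeR adjusted p = 0.00606) and Mrpl33 by -0.35 (SE 0.10, edgeR adjusted p = 0.0359). The call of Mrpl52 was lost without 30 s replicate 1 or without 3 min replicate 3 (adjusted p up to 0.113). That of Mrpl33 was lost when any library of both groups but 3 min replicate 2 was left out (up to 0.237), and by DESeq2 (0.0775). With the length trend removed neither was called (Mrpl52 0.0766, Mrpl33 0.124).

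Among the small-subunit genes, Mrps16, counterpart of bacterial S16, was at 112, 109 and 104 CPM in control, 80.4, 71.2 and 63.7 after 30 s and 78.9, 66.1 and 68.4 after 3 min. No library of brief trypsin reached the control levels. Its log2 change was -0.58 (SE 0.11) at 30 s and -0.61 (SE 0.11) at 3 min. Mrps18c, 1 of the 3 mammalian forms of S18, changed by -0.70 (SE 0.15, edgeR adjusted p = 0.000558) and -0.61 (SE 0.15, edgeR adjusted p = 0.00649); the call at 3 min was lost without control replicate 3 (0.0627). Mrps24, the S3 protein, changed by -0.28 and -0.36. Mrps12, the S12 protein of the decoding centre, went from 89.1 ± 7.35 to 63.0 ± 1.61 CPM (SD, n = 3) after 30 s, which is -0.51 as a log2 change (SE 0.12, edgeR adjusted p = 0.00254). After 3 min its value was -0.19 (SE 0.12, edgeR adjusted p = 0.547).

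Further large-subunit genes that fell at both times were Mrpl34, by -0.62 and -0.60, and Mrpl30, by -0.39 and -0.35. Mrpl55 fell by 0.78 on the log2 scale after 30 s (SE 0.14, edgeR adjusted p = 3.35e-05). It was also the single member called with the cold-active protease, at 61.1 ± 3.7 CPM in control and 42.3 ± 4.1 with the protease (log2 change -0.52, edgeR adjusted p = 0.0435). That call was lost when any 1 of the 6 libraries was left out (adjusted p up to 0.235), by DESeq2 (0.1), without the filter on low counts (0.0859), with the length trend removed (0.0566), with a replicate block (0.0533) and with only both groups in the fit (0.0561). The other 5 genes called lower at 30 s, Mrpl45, Mrpl42, Mrps24, Mrpl20 and Mrpl13, changed by -0.34 to -0.23.

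Mrps21, the S21 protein of the small subunit, had the largest fitted falls among tested members at 30 s and at 30 min, and few counts, 7 to 46 per library. It lies on chromosome 3 (95862634 to 95871519). Its levels were 17.97, 21.003 and 21.2 CPM in control, 6.52, 12.3 and 9.10 after 30 s, 7.66, 16.9 and 10.1 after 3 min, and 9.43, 3.67 and 6.30 after 30 min. All libraries of these 3 treatments were below the lowest control library. Low trypsin gave 15.4, 14.1 and 21.5 CPM and the cold-active protease 18.2, 16.9 and 20.7, both overlapping control. The log2 change was -1.13 (SE 0.27, edgeR adjusted p = 0.00319) at 30 s, -0.78 (SE 0.27, edgeR adjusted p = 0.111) at 3 min and -1.67 (SE 0.31, edgeR adjusted p = 0.000163) at 30 min. The call at 30 s was lost without 30 s replicate 1 (0.0598). A near-identical copy, Gm6181, had 30 counts over all 18 libraries. Such copies of Mrps16, Mrpl27 and Mrpl42 had 3, 6 and 4 counts, and that of Mrps26, Gm9063, was not found by symbol among the counts. How reads matching both genes were assigned was not stated, so the values of these members are uncertain to that extent.

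The 4 members that rose came from both subunits. Mrps28, the small-subunit protein related to bacterial S1, lies on chromosome 3 (8802146 to 8923918). It was at 45.6, 44.9 and 36.3 CPM in control and 80.7, 91.0 and 104 in low trypsin, the highest group. After 30 s it was at 70.8, 70.2 and 57.8 CPM, after 3 min at 49.5, 59.0 and 45.6, after 30 min at 52.8, 70.8 and 52.3, and with the cold-active protease at 50.0, 49.4 and 45.3. The libraries of all trypsin groups were above those of control, at 3 min by a narrow margin, and low trypsin was above every other group. The log2 change was 1.13 (SE 0.13, edgeR adjusted p = 7.52e-09) in low trypsin and 0.66 (SE 0.14, edgeR adjusted p = 0.000564) at 30 s. At 30 min it was 0.49 (edgeR adjusted p = 0.0369), which was no longer called when control replicate 2 or 3 was left out, nor when 30 min replicate 2 was (adjusted p up to 0.356), nor by DESeq2 (0.0892), without the filter on low counts (0.0539) or with only both groups in the fit (0.0635).

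Mrpl27, counterpart of bacterial L27, was at 44.3, 40.1 and 38.7 CPM in control, 60.4, 65.1 and 54.6 after 30 s and 60.8, 70.9 and 62.6 in low trypsin. Levels were 41.2, 57.9 and 50.3 CPM after 3 min, 52.8, 51.4 and 58.6 after 30 min and 54.2, 50.2 and 55.7 with the cold-active protease. All groups but 3 min lay wholly above control. The log2 change was 0.56 (SE 0.13, edgeR adjusted p = 0.00292) at 30 s and 0.66 (SE 0.13, edgeR adjusted p = 0.000442) in low trypsin. It was 0.41 after 30 min (adjusted p = 0.0859) and 0.38 with the cold-active protease (adjusted p = 0.277), which were not called. Mrpl10, which anchors the stalk of the large subunit, rose by 0.58 (SE 0.14, edgeR adjusted p = 0.00278) and 0.55 (SE 0.14, edgeR adjusted p = 0.00767) at 30 s and in low trypsin. Its call at 30 s was lost without control replicate 2 or 30 s replicate 1 (adjusted p up to 0.0778), and in low trypsin without control replicate 2 or low trypsin replicate 2 (up to 0.0952). Mrpl12, the stalk protein itself, was at 166, 165 and 156 CPM in control and 242, 225 and 196 after 30 s (log2 change 0.45, SE 0.09, edgeR adjusted p = 0.000102). Levels were 206, 178 and 190.3 CPM after 3 min, 214, 164 and 199 after 30 min, 167, 201 and 191 in low trypsin and 198, 187 and 193 with the cold-active protease. All groups but 30 min lay wholly above control, and outside 30 s the log2 values of 0.20 to 0.25 were not called by edgeR (adjusted p = 0.12 to 0.259). Antisense genes overlap the last exons of Mrpl10 and Mrpl12, and with no statement of the strand used in counting, reads of the partners cannot be told apart.

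**Figure D3:**
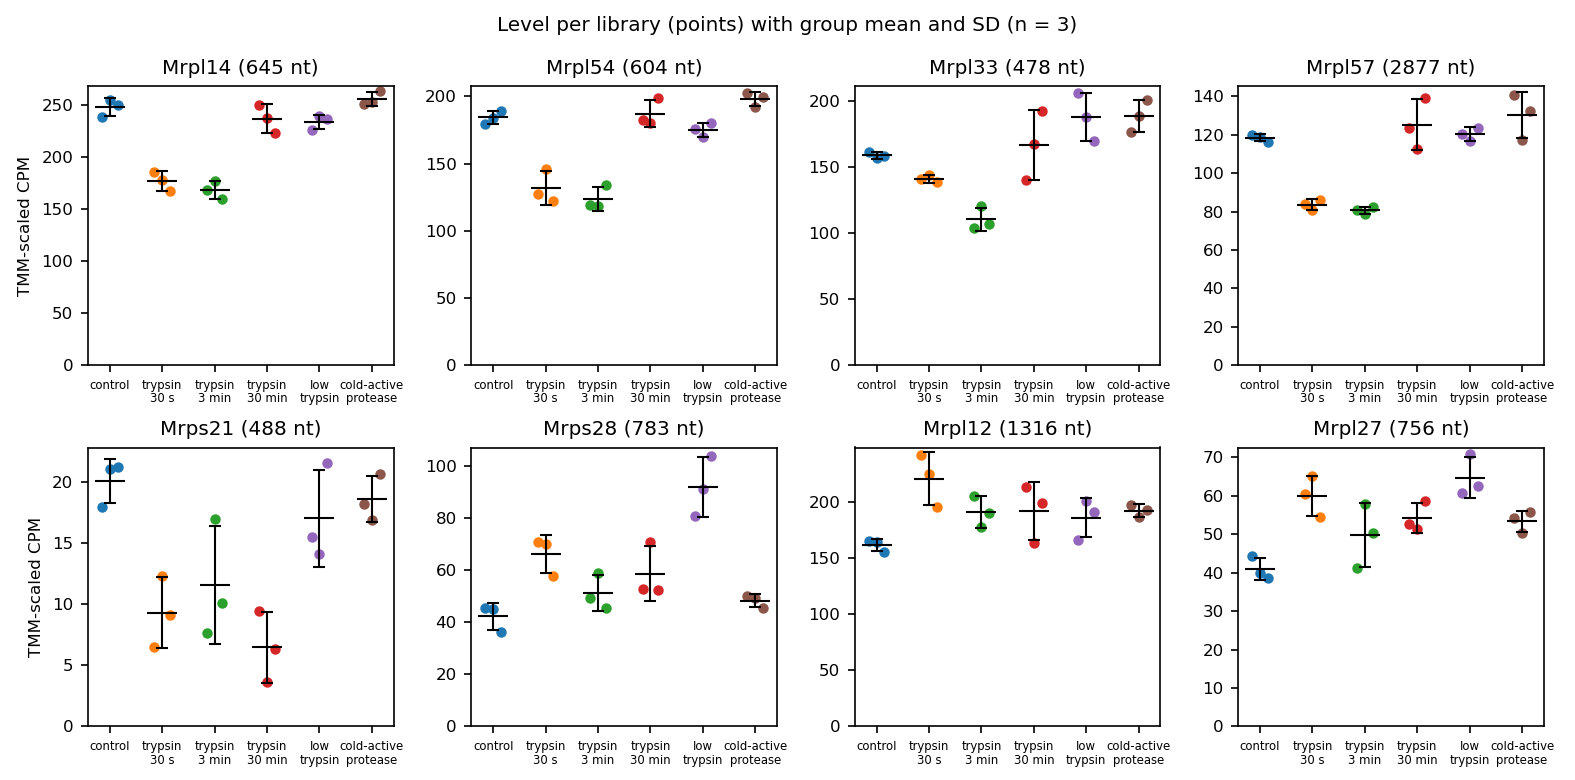
TMM-scaled CPM of 8 members in each library (points) with the group mean and SD (n = 3), by group, with the length of the principal mRNA in brackets. Mrpl14, Mrpl54 and Mrpl57 are low in 30 s and 3 min trypsin, Mrpl33 is lowest at 3 min, and Mrps28 is highest in low trypsin.

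In low trypsin the single fall was that of Mrps26, by -0.29 (SE 0.08, edgeR adjusted p = 0.012), lost without control replicate 3 or low trypsin replicate 2 (adjusted p up to 0.115). At 30 min, Mrpl9 was at 21.9 ± 3.8 CPM against 34.5 ± 6.3 in control (SD, n = 3; log2 change -0.64, edgeR adjusted p = 0.0353). That call was lost without control replicate 1 or 2 or 30 min replicate 1 or 2 (adjusted p up to 0.197), by DESeq2 (0.0806) and with only both groups in the fit (0.0629). Mrpl58, a peptidyl-tRNA hydrolase of the large subunit that releases stalled ribosomes, had log2 values of -0.14 to 0.07 over the 5 comparisons and was called in none. Mrps36 had values of -0.66 to -0.08 and was called in none. It has 4 near-identical copies, and how reads matching several of them were assigned was not stated. Gm3544 had 2 counts over all 18 libraries, and the other copies were not found by symbol among the counts.

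Most members called between treatments were lower in 3 min trypsin, a group that all 4 of these comparisons include. No treatment but 3 min was compared with 30 s, so the calls do not set 3 min apart from 30 s. Compared with 3 min, 9 members were higher after 30 min (2.83% of all genes) and 2 lower (1.2%), or 14.7% of members against 4.03% of genes. In low trypsin 11 were higher (3.78% of all genes) and 0 lower (0.576%), or 14.7% against 4.36%. With the cold-active protease 12 were higher (2.84% of all genes) and 0 lower (0.864%), or 16% against 3.7%. At an unadjusted p under 0.05, 0 members were lower in low trypsin and 1 with the cold-active protease, and DESeq2 called none lower in either. Of all 10075 genes, 483 and 565 were lower at that p. These comparisons share the 3 min libraries. For Mrpl57 the log2 difference from 3 min was 0.63 after 30 min, 0.58 in low trypsin and 0.69 with the cold-active protease. For Mrpl54 it was 0.60, 0.51 and 0.68, for Mrpl33 0.59, 0.76 and 0.77, and for Mrpl14 0.49, 0.47 and 0.60. Those lower after 30 min than after 3 min were Mrpl9 (-0.74) and Mrpl18 (-0.38). The call of Mrpl9 was lost without 3 min replicate 1 or 30 min replicate 1 (adjusted p up to 0.0919), and that of Mrpl18 without 3 min replicate 1 or 2 or 30 min replicate 2 or 3 (up to 0.169).

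Falls were most frequent among members with short mRNAs but were not confined to them. The principal mRNA in GENCODE M21 was 800 nt or shorter for 15 members. After 3 min, 6 of these 15 fell and the median log2 change was -0.53, while 2 of 30 tested members of up to 1600 nt fell (median -0.08) and 2 of 30 longer ones (median -0.13). After 30 s, 7 of the 15 short members fell and 2 rose (median -0.30), against 5 and 1 of the middle class (median -0.10) and 3 and 1 of the long class (median -0.09). Other coding genes with mRNAs of 800 nt or shorter moved alike: of 282 tested, 127 fell and 17 rose after 30 s (median -0.36), and 132 fell and 1 rose after 3 min (median -0.43). Among other coding genes of the middle class, 110 of 1324 fell after 30 s and 81 after 3 min, beside 5 and 2 of 30 members. Among the longest, 107 of 8037 fell after 30 s (median 0.0092) and 58 after 3 min (median 0.023), beside 3 and 2 of 30 members. Members of the long class thus fell in a larger share, and had a lower median, than other long coding genes. This difference was not tested. The long-class members called lower were Mrpl57 and Mrps16 at both times and Mrpl45 at 30 s. The coding parts of Mrpl57 and Mrps16 are short, at 306 and 405 nt, and that of Mrpl45 is 918 nt. Coding length, which does not depend on the choice of mRNA ends, gave a like split, with 11 of 23 members of 450 nt or less falling after 30 s against 4 of 52 longer ones, and 8 against 2 after 3 min. Other coding genes were not split by coding length, so this split has no background beside it.

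The proteins of the cytosolic ribosome are also encoded by short mRNAs. Of 78 tested, 60 fell and 8 rose after 30 s (median log2 change -0.42) and 53 fell after 3 min (median -0.46). When the trend with length was removed from each library, 5 members were called lower and 6 higher after 30 s in place of 15 and 4, and 2 lower and 3 higher after 3 min in place of 10 and 0. After 30 min the split was 3 lower and 4 higher in place of 2 and 1, and for 30 min against 3 min it was 3 lower and 4 higher in place of 2 and 9. Of all 10075 tested genes, the removal gave 254 lower and 358 higher after 30 s (6.07% called), and 168 and 122 after 3 min (2.88%). It gave 209 lower and 227 higher after 30 min (4.33%), and 150 and 206 for 30 min against 3 min (3.53%). Calls that ended at 30 s included Mrps21 (adjusted p = 0.147), Mrps18c (0.144), Mrpl34 (0.138), Mrps12 (0.129), Mrpl14 (0.206) and Mrpl54 (0.407) by edgeR. At 3 min they were Mrps18c (0.56), Mrpl34 (0.459), Mrpl54 (0.308), Mrpl14 (0.191), Mrpl52 (0.939), Mrpl33 (0.979), Mrps24 (0.157) and Mrpl30 (0.258). Mrps16 and Mrpl57 at both times, and Mrpl55, Mrpl30 and all 4 rises at 30 s, were still called by edgeR after that removal. The removal used the principal mRNA, which is 2572 nt for Mrps16 and 2877 nt for Mrpl57. Coding genes of 2400 to 3600 nt had medians of 0.0041 at 30 s and 0.0090 at 3 min. The removal could therefore hardly move these 2 genes. Their coding parts are 405 and 306 nt, and a trend with coding length was not removed.

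**Figure D4:**
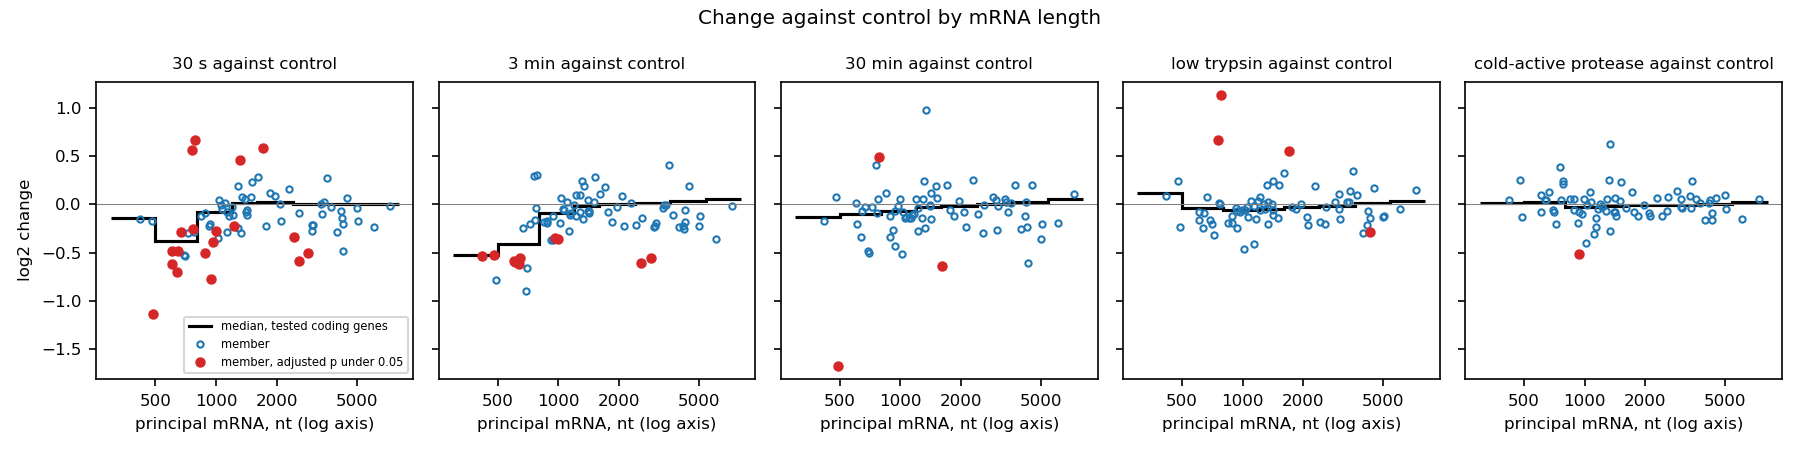
Log2 change against control by length of the principal mRNA (log axis) for the tested members (circles; filled where the edgeR adjusted p is under 0.05), with the median of tested coding genes per length bin (black line), in the 5 comparisons with control. At 30 s and 3 min the black line drops for mRNAs under 800 nt, at 30 s less so under 500 nt, and many short members lie near it. In the other comparisons the line stays nearer 0.

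Start regions of 68 of the 77 members were found in RefSeq (GRCm38.p6). In the 250 bases before the start, on both strands, the letters of the NRF1 motif (GCGCA, any base, GCGC) stood in 10 of the 68 genes (14.7%). CCGGAAG of the ETS motif stood in 17 (25%). Over all 27025 genes with a start region in RefSeq, whether tested here or not, these shares were 4.23% and 7.83%. Expressed coding genes were not compared separately, so an excess particular to the members is not shown. AAGATGGCG of the YY1 motif, which was also searched, stood in 2 of the 68 genes (2.94%), against 0.71% of the 27025. NRF1 and ETS-family GABP are known activators of nuclear genes for mitochondria. Windows of 100 bases, chosen because they hold a match, show where NRF1 or ETS letters stand in members that fell (Mrps21, Mrpl57, Mrpl52) and rose (Mrpl12, Mrpl27). The windows run 5′ to 3′ on the strand of the gene, with the match in capitals. They are chr3:95871515-95871614 (minus strand) for Mrps21, chr14:57826139-57826238 (plus) for Mrpl57, chr11:120484537-120484636 (plus) for Mrpl12, chr14:54426809-54426908 (plus) for Mrpl52 and chr11:94653691-94653790 (plus) for Mrpl27.
Mrps21: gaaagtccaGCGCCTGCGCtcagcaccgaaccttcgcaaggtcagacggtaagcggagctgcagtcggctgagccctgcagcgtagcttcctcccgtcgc
Mrpl57: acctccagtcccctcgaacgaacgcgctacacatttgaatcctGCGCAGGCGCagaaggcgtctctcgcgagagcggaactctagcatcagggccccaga
Mrpl12: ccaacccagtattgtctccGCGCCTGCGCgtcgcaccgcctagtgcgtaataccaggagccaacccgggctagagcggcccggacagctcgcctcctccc
Mrpl52: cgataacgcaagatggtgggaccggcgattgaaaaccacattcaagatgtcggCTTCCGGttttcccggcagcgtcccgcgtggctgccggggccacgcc
Mrpl27: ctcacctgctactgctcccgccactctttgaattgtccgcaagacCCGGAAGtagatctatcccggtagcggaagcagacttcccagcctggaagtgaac
Mrps21, Mrpl57 and Mrpl12 carry the NRF1 letters, and Mrpl52 and Mrpl27 the ETS letters, on either strand. The NRF1 letters stood in 5 of 17 matched members that fell in a comparison with control, in 1 of 3 that rose and in 4 of 47 that were not called. For the ETS letters these counts were 5 of 17, 1 of 3 and 11 of 47, and for the YY1 letters 0 of 17, 0 of 3 and 2 of 47. Matches of letters are a description and do not show binding.

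Other genes of mitochondrial translation were read from lists of 5 kinds. Of 5 tested ribosomal subunits with other names, 1 was called at 30 s and at 3 min. This was Chchd1, a small-subunit protein, which fell by 0.82 on the log2 scale after 30 s (SE 0.10, edgeR adjusted p = 1.04e-08) and by 0.73 after 3 min (SE 0.10). None of 14 tested translation factors was called by edgeR at 30 s or 3 min, and none by DESeq2. At an unadjusted p under 0.05, 1 was lower at 30 s and 1 higher at 3 min. Of all 10075 genes, 797 were lower at 30 s and 596 higher at 3 min at that p. Of 26 tested genes of assembly and rRNA modification, 2 were called at 30 s (7.69%, near the 6.94% of all genes), 1 at 3 min (3.85%, near 3.96%) and 2 in low trypsin (7.69%, beside 5.19%). Ndufab1, the mitochondrial acyl carrier protein, changed by -0.43 at 30 s and -0.41 at 3 min. Mterf3, a factor of mitochondrial transcription and ribosome assembly, rose by 0.84 at 30 s and 0.94 in low trypsin.

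Further calls in these lists were lost under alternatives chosen after seeing the data. Eral1, a chaperone of the small rRNA, was at 0.67 in low trypsin (edgeR adjusted p = 0.0183), which was lost by DESeq2 (0.0598), without control replicate 3 (0.190) and without low trypsin replicate 2 (0.121). Of 17 tRNA synthetases of mitochondria, edgeR called only Lars2 against control, at -1.35 in low trypsin (adjusted p = 0.0341). That call was lost by DESeq2 (0.422), without control replicate 1 (0.235) or 2 (0.0976), and without low trypsin replicate 1 (0.187) or 2 (0.136). The small-subunit rRNA mt-Rnr1 was at -1.06 after 30 s against control (edgeR adjusted p = 0.0144) and at 1.38 after 3 min against 30 s (edgeR adjusted p = 0.00274). DESeq2 called neither (0.497 and 0.488). The first was at -0.50 without control replicate 2 (adjusted p = 0.487) and was also lost without 30 s replicate 2 (0.0687) or 3 (0.101), and the other was at 0.79 without 3 min replicate 3 (0.285).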

How the data were processed

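Libraries were made by BRB-seq from C2C12 cells. HISAT2 2.1.0 and featureCounts 2.0.1 are named in the submitters' processing notes, as are UMI-tools 1.0.1 and cutadapt 2.6; their settings were not given. The authors deposited raw counts per gene, which were used as deposited, and 0 library columns were left unmapped. Counts were fitted in edgeR 4.0.16 (R 4.3.3) with TMM scaling, filterByExpr by group, all 18 libraries in 1 quasi-likelihood fit and no covariate; p-values were adjusted over 10075 genes (Benjamini-Hochberg, 0.05). The fit was checked on simulated data. CPM values are TMM-scaled. mRNA lengths came from GENCODE M21, where the longest of equally ranked principal mRNAs was used. Alternatives were DESeq2 1.42.0, RLE scaling, 2 filters, a replicate block, removal of the length trend (loess, span 0.3), a fit of only the groups compared, and leaving out each library. Named genes were the called members with the largest changes (up to 10 per direction against control, 4 between treatments), the 10 with the smallest F-test p, and 5 always named (Mrps21, Mrps12, Mrpl12, Mrps36, Mrpl58); Mrpl13, Mrpl20, Mrpl42, Mrpl45 and Mrps6 were chosen after their values were seen. The members and lists were chosen with earlier results of these data known.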

Additional observations from a re-analysis of the deposited data

Results flagged for a closer look

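Members whose level differed between exposure times were taken for a closer look, by the test of the difference itself (edgeR quasi-likelihood test, Benjamini-Hochberg adjusted p under 0.05). Of all tested genes, 1.94% were called between 3 min and 30 s and 4.03% between 30 min and 3 min. Between 3 min and 30 s the members were Mrpl33 (log2 difference -0.35, adjusted p = 0.0359) and Mrpl52 (-0.38, adjusted p = 0.00606). The call of Mrpl33 was lost in 5 of 6 fits that left out 1 library and by DESeq2 (0.0775). That of Mrpl52 was lost in 2 of 6 such fits. Between 30 min and 3 min, the higher members were Mrpl14 (0.49), Mrpl30 (0.33), Mrpl33 (0.59), Mrpl34 (0.39), Mrpl52 (0.36), Mrpl54 (0.60), Mrpl57 (0.63), Mrps24 (0.41) and Mrps6 (0.30), with edgeR adjusted p from 4.42e-07 to 0.0333. The lower ones were Mrpl9 (-0.74, adjusted p = 0.01) and Mrpl18 (-0.38, adjusted p = 0.0239), whose calls were lost in 2 of 6 and 4 of 6 fits that left out 1 library.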

How the results depend on the processing

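Of 624 alternative values for the calls of named members, 558 kept their direction and stayed past the threshold, 65 kept the direction only, and 1 reversed: Mrpl52 after 3 min, at 0.036 (edgeR adjusted p = 0.939) with the length trend removed. That removal gave 11 called members at 30 s (19 in the main analysis), 5 at 3 min (10), 7 at 30 min (3), 0 with the cold-active protease (1), 0 for 3 min against 30 s (2), 7 for 30 min against 3 min (11), 3 for low trypsin against 3 min (11) and 5 for the cold-active protease against 3 min (12). Of all tested genes it called 6.07%, 2.88%, 4.33% and 0.615% in those comparisons with control. Between treatments, in the same order, it called 1.83%, 3.53%, 3.8% and 3.01% of them. DESeq2 called 1 at 30 min, 0 with the cold-active protease and 1 for 3 min against 30 s. A fit of only the 2 groups called 1 at 30 min and 0 with the cold-active protease, where the fit without a filter on low counts also gave 0. Leaving out 1 library gave 16 to 17 members at 30 s, 10 to 12 at 3 min, 1 (without control replicate 2) to 4 at 30 min, 2 (without low trypsin replicate 2) to 5 in low trypsin, 0 to 0 with the cold-active protease, 0 to 2 for 3 min against 30 s, 8 to 10 for 30 min against 3 min, 8 to 10 for low trypsin against 3 min, 10 to 12 for the cold-active protease against 3 min, and 19 to 24 in the F test. With the lot number as a replicate block, the counts were 19, 10, 3, 4 and 0 against control, 2, 11, 11 and 12 between treatments, and 22 in the F test. Same-numbered libraries did not deviate together (correlations -0.060 to 0.071, 0 of 45 pairs above 0.1), so the numbers were not taken to pair the samples. The causes of these shifts were not tested. Members with few counts such as Mrps21 and Mrps36 have wide errors.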
